A study of Homo sapiens with 24 samples.

Results

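Natural antisense transcripts are RNAs read from the DNA strand opposite to another gene, and those without coding capacity are usually named after that gene with the suffix AS and a number. The members described here are the rows of the normalised count table whose name ends in this suffix and whose normalised count reached at least 10 in at least 3 of the 24 libraries. Of 1203 rows with such a name, 1 was set aside by the rule, 296 were at 0 in every library and 495 were above 0 but below the level filter, which left 411 members among the 17860 genes that pass the same filter and 57820 rows in all. The members were thus chosen by their name and selected on their measured level. Nearest the filter, the third highest value of a row was 10.1 for KCNK15-AS1 and SNAP25-AS1 and 10.5 for CSTF3-AS1 inside it, and 9.88 for BHLHE40-AS1, 9.87 for HIF1A-AS1 and 9.86 for ADPGK-AS1 outside it. Through RBE libraries alone 26 members passed it, through SNU1079 libraries alone 22, through YC-1 libraries alone 12 and through DMSO libraries alone 2, so these members had an uneven level by construction. Fewer than 3 DMSO libraries were at 10 or more for 44 members and fewer than 3 YC-1 libraries for 31. Of those described below, KRTAP5-AS1, ADAMTSL4-AS1, CCDC13-AS1 and PSMD6-AS2 passed through their YC-1 libraries and NAV2-AS2 and INHBA-AS1 through their DMSO libraries, and their differences are given as a description.

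The libraries hold messenger RNA from RBE and SNU1079, a pair of established human cholangiocarcinoma (bile duct cancer) cell lines that the labels describe as IDH1-mutant and as expressing the sulfotransferase SULT1A1. Each line was given YC-1, or DMSO as the vehicle, for 6 h or 16 h, with 3 libraries per group and 8 groups. The groups are RBE with YC-1 at 6 h and 16 h, SNU1079 with YC-1 at 6 h and 16 h, RBE with DMSO at 6 h and 16 h, and SNU1079 with DMSO at 6 h and 16 h. The labels give no dose, and the design text counts the 3 libraries of each group as biological replicates. YC-1 is an indazole compound studied for activating soluble guanylate cyclase and for inhibiting HIF-1, and the series title names sulfonation-dependent alkylators. The time label of the samples differs from their titles, and the titles and the design text were followed. Each line is 1 cell line, and its libraries stand for no other tumour.

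Antisense RNAs meet their sense gene in several ways. Some start head to head from a shared promoter and run away from it, others cross the start or the end of the sense gene, and others lie inside it. As background, many are spliced and polyadenylated but short-lived, because the nuclear exosome, a complex of RNA-degrading enzymes, removes a large part of promoter-derived RNA. Some are known to act on their neighbour through chromatin or transcription, others act elsewhere as scaffolds or microRNA decoys, and for many no function is known.

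Summed over all rows, normalised counts lay between 20430000 and 27010000 in YC-1 libraries and between 19010000 and 21580000 in DMSO libraries. The keratins KRT7, KRT19, KRT8 and KRT18 were at 5609 or higher in every library. EPCAM was at 792 or higher and SOX9 at 335 or higher. The other lineages were near 0 at ALB (at most 10.5), CYP3A4 (at most 17.1), COL3A1 (at most 3.38), PTPRC (at most 6.73), CD3E (at most 1.10) and VWF (at most 51.4), whereas CD68 was at 1036 to 4110 and COL1A1 had a median of 2207 in SNU1079 and 27.8 in RBE. Each of 3 SNU1079 libraries correlated with both of its group mates below 0.97, while the mates agreed better with each other. They were replicate 2 of YC-1 at 16 h, replicate 1 of YC-1 at 6 h and replicate 1 of DMSO at 16 h. With YC-1 at 16 h, however, all 3 SNU1079 libraries correlated below 0.97 with each other. There the mates of replicate 2 agreed at 0.9656, barely above its own 0.9653 with the closer mate. In replicate 2 of YC-1 at 16 h, mitochondrial genes held 3.38% of the signal, against 18.1% and 22.1% in its mates. This share moved with treatment, at 15.4% to 17.0% in RBE with YC-1 at 16 h, against 7.67% to 8.18% with DMSO, while the SNU1079 DMSO libraries at 16 h were at 6.02% to 8.5%. At 6 h it was 7.96% to 10.7% in RBE with YC-1, against 6.82% to 7.82% with DMSO, and 7.78% to 11.5% in SNU1079 with YC-1, against 6.90% to 8.39% with DMSO. Its part in the differences below was not tested.

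The kit keeps the strand of each RNA, but the strand setting used for counting is not given in the sources used here. Reads from an antisense RNA and its sense gene therefore cannot be told apart where their exons share bases. By GENCODE 29 on GRCh38, which matched 410 members by identifier, 86 members share no exonic base with a gene on the other strand and 324 do. In 256 of these the sense gene shares the most and in 68 another gene does. Over 50% of the exonic length is shared in 47 members. In bulk libraries, a larger share of cells with a transcript and more transcript per cell cannot be told apart.

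The 411 members were placed by their position against the sense gene. The start of the sense gene was crossed by 148 members (36.0%) and its end by 91 (22.1%). A further 80 (19.5%) lay inside it and 58 (14.1%) ran away from it head to head, with a median of 113 bases between the starts. The sense gene was spanned by 25, and 1 had another arrangement. The other 8 could not be placed, because the member or a gene with the name before the hyphen was not matched. A sense row was found for 404 members and tested for 378 of them, which hold 373 different sense genes.

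Members were low. The median of their median normalised counts over the 24 libraries was 28.0, compared with 239 over all genes tested, 12.5 over 212 LINC genes (intergenic noncoding RNAs) and 674 over the sense genes. A median of 100 or more was reached by 74 members, 95 were under 10, 182 were at 10 or more in every library and 82 were at 0 in at least 1 library. On a scale per kilobase of exon, the antisense level exceeded the sense level in 61 to 75 of 377 pairs, depending on the group. The median log2 ratio of antisense over sense level per kilobase lay between -3.02 and -2.44 over the groups. All members together held 0.227% to 0.256% of the signal as group means, and one of them, LRRC75A-AS1, held between 10.6% and 32.3% of that in single libraries.

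A smaller share of antisense transcripts than of all genes was called for YC-1 in each of the 4 comparisons, in both directions. The test was limma's moderated test on log2(normalised count + 1) over all genes, with a Benjamini-Hochberg adjusted p under 0.05 as the threshold. In RBE at 6 h, 39 members were higher and 24 lower with YC-1 than with DMSO, 15.3% of the members, beside 24% of all genes tested (11.6% higher and 12.4% lower). At 16 h in RBE, 71 were higher and 75 lower, 35.5% beside 53.9% (27.3% and 26.6%). In SNU1079 at 6 h, 32 were higher and 39 lower, 17.3% beside 28.2% (14% and 14.2%). At 16 h in SNU1079, 67 were higher and 91 lower, 38.4% beside 54.5% (28.7% and 25.8%). Among the 74 members with a median of 100 or more, the shares called were 27%, 51.4%, 29.7% and 60.8% in RBE at 6 h and 16 h and SNU1079 at 6 h and 16 h, and among the LINC genes they were 14.2%, 36.8%, 17.0% and 38.2%. The difference in share between members and all genes was not tested, nor was the part of the low level of most members in it.

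The median log2 fold change of the members was -0.05 at 6 h and 0.15 at 16 h for RBE and -0.10 at 6 h and -0.08 at 16 h for SNU1079, beside 0.00, 0.02, 0.01 and 0.06 over all genes. The balance of directions at 16 h depended on the scaling. Scaling each library to an equal sum moved the median of all genes at 16 h by -0.30 in RBE and -0.31 in SNU1079. It gave 52 members higher and 110 lower in RBE, beside 2908 and 6475 of all 17860 genes. In SNU1079 it gave 31 higher and 142 lower, beside 3068 and 6599. Scaling to the summed ribosomal protein genes moved that median by -0.82 and -0.47. In RBE it gave 20 members higher and 169 lower, beside 1084 and 9873 of all genes. In SNU1079 it gave 25 higher and 160 lower, beside 2338 and 7369. At 6 h that scaling gave 33 higher and 30 lower in RBE, beside 1473 and 2108 of all genes. In SNU1079 it gave 18 higher and 60 lower, beside 1367 and 3651. At 6 h in RBE the equal sums gave 35 higher and 29 lower, beside 1864 and 2439. The deposited scaling is used below, and members whose direction turned under another are named where they are described. Turns of sense genes are not listed, and their 16 h values can turn where they are smaller than such a shift. In RBE at 6 h, leaving out the 3 SNU1079 libraries that stood apart changed the split to 48 higher and 44 lower.

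Across the 4 comparisons, 238 members (57.9%, beside 72.8% of all genes tested) were called at least once and 173 (42.1%, beside 27.2%) never. Higher with YC-1 in all 4 were 18 members (4.38%, beside 6.18% of all genes), and lower in all 4 were 8 (1.95%, beside 7.5%). The libraries of the groups did not overlap in any of the 4 comparisons for 16 of those 18 (3.89% of the members, beside 5.83% of all genes) and for all 8 (1.95%, beside 7.17%). These 26 were picked for their calls, so their values are given as a description. With equal sums the counts of members higher and lower in all 4 were 12 and 9, with the ribosomal protein sum 8 and 10, and without the 3 libraries that stood apart 16 and 11. The matching counts over all genes are not given.

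Among the members higher in all 4 comparisons, KRTAP5-AS1 (ENSG00000233930, chr11:1571353-1599184, plus strand) moved most. It lies in a cluster of keratin-associated protein genes, which are known for the hair shaft. In RBE its normalised counts were 80.3, 79.3 and 81.2 with YC-1 at 6 h, against 5.87, 5.23 and 4.04 with DMSO, and 109, 84.8 and 134 with YC-1 at 16 h, against 2.39, 0.666 and 16.5 with DMSO. In SNU1079 they were 122, 119.8 and 110.3 with YC-1 at 6 h, against 3.96, 4.97 and 11.2 with DMSO, and 115, 96.5 and 164 with YC-1 at 16 h, against 3.06, 8.05 and 6.93 with DMSO. Every YC-1 library lay above every DMSO library of its line. The log2 fold changes were 3.76 ± 0.55 (SE) for RBE at 6 h, 4.55 ± 0.55 at 16 h, 4.05 ± 0.55 for SNU1079 at 6 h and 4.21 ± 0.55 at 16 h. At 10 or more were 12 YC-1 libraries and 2 DMSO libraries, so it passed the level filter through YC-1 and had to differ. It shares 35.7% of its exonic length with KRTAP5-2 on the other strand, whose own log2 fold changes were 3.73, 4.72, 3.94 and 4.90 in the same order, so the rise of the antisense row cannot be told apart from that of KRTAP5-2. The family has near-identical copies, so the assignment of its reads is uncertain.

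MAPKAPK5-AS1 (ENSG00000234608, chr12:111839764-111842902) crosses the start of MAPKAPK5, a stress-activated protein kinase. In RBE it stood at 476, 446 and 493 with YC-1 at 6 h, against 196, 185 and 197 with DMSO, and at 1082, 1130 and 1035 with YC-1 at 16 h, against 159, 155 and 174 with DMSO. In SNU1079 it stood at 376, 364 and 456 with YC-1 at 6 h, against 174, 144 and 163 with DMSO, and at 1062, 931 and 636 with YC-1 at 16 h, against 241, 202 and 179.7 with DMSO. The libraries of the groups did not overlap in any comparison. The log2 fold changes were 1.28 ± 0.16, 2.73 ± 0.16, 1.30 ± 0.16 and 2.05 ± 0.16 (SE), in the order RBE at 6 h and 16 h and SNU1079 at 6 h and 16 h. Although 34.6% of its exonic length is shared with MAPKAPK5, the kinase gene had values of -0.19, -0.23, -0.30 and -0.01 in the same order and none of them passed the threshold.

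THAP9-AS1 (ENSG00000251022, chr4:82893009-82900960) crosses the start of THAP9, a gene derived from a DNA transposase. Its counts were 965, 1119 and 1037 in RBE with YC-1 at 6 h, against 358, 392 and 357 with DMSO, and 957, 1412 and 1575 in SNU1079 with YC-1 at 6 h, against 354, 448 and 516 with DMSO. At 16 h they were 1078, 1152 and 997 in RBE with YC-1, against 415, 354 and 364 with DMSO, and 1020, 908 and 1328 in SNU1079 with YC-1, against 389, 466 and 505 with DMSO. Fold changes on the log2 scale were 1.49, 1.51, 1.56 and 1.25, with limma adjusted p-values of 1.5e-06, 2.53e-07, 6.75e-07 and 3.31e-06. THAP9 itself averaged 53.3 over all libraries and passed the threshold in none of the 4.

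LRRC75A-AS1 (ENSG00000175061, chr17:16438822-16478678), known as a host of small nucleolar RNAs in its introns, was the most abundant member, with a mean of 11380 over the 24 libraries. At 16 h it reached 20600, 20600 and 20090 in RBE with YC-1, against 10210, 9507 and 10170 with DMSO, and 13690, 16810 and 15270 in SNU1079 with YC-1, against 5601, 6370 and 5914 with DMSO. Its log2 fold changes were 0.30, 1.04, 0.64 and 1.35, called in each comparison. It alone held 30.6% to 32.3% of the members' signal in the RBE YC-1 libraries at 16 h, against 19.3% to 21.5% with DMSO, and 23.8% to 25.5% in SNU1079 with YC-1, against 10.6% to 12.9%. LRRC75A, with which it shares 12% of its exonic length, had log2 fold changes of 0.22, 1.11, 0.63 and 1.18, of which the first was not called.

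The other members higher in all 4 comparisons ranged from abundant to near the level filter. DDIT4-AS1 lies wholly inside the exons of DDIT4, an inhibitor of mTORC1, and moved by 1.03, 1.09, 1.10 and 0.55, beside 1.20, 0.97, 0.95 and 0.71 for DDIT4. EAF1-AS1, which shares 34.7% of its exons with the transcription elongation partner EAF1, moved by 1.18, 1.62, 1.14 and 1.78, beside 1.33, 1.55, 1.49 and 1.93. KIF9-AS1 moved by 1.83, 1.74, 1.39 and 1.80, whereas the kinesin gene KIF9 passed the threshold at 16 h alone, with 0.99 in RBE and 0.69 in SNU1079. PAX8-AS1, named after a paired-box transcription factor, had values of 0.62, 0.76, 0.42 and 0.36 that turned to -0.13 in RBE and -0.17 in SNU1079 at 16 h with the ribosomal protein sum and to -0.01 in SNU1079 at 16 h with equal sums. ZNF337-AS1 had 0.60, 1.16, 0.49 and 0.41, of which the last became -0.12 with the ribosomal protein sum. ADAMTSL4-AS1, CCDC13-AS1 and PSMD6-AS2 had no DMSO library at 10 or more. The remaining 6 were NUP50-AS1 and OSER1-AS1, described below, and CBR3-AS1, JHDM1D-AS1, PITRM1-AS1 and SPTY2D1-AS1, which had log2 fold changes between 0.78 and 1.98. JHDM1D-AS1 shares no exonic base with the other strand. EAF1-AS1, ADAMTSL4-AS1, CCDC13-AS1, PSMD6-AS2, ZNF337-AS1 and the last 4 were named after their values were seen.

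**Figure D1:**
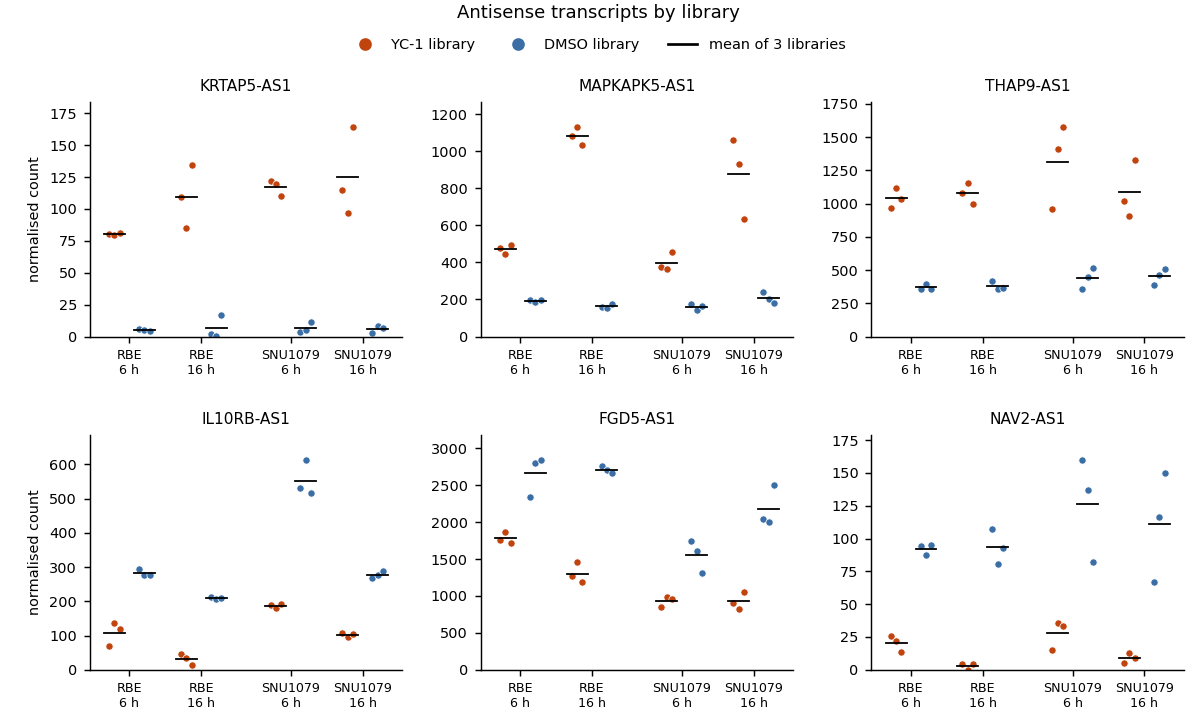
Normalised counts (linear axes from 0) of KRTAP5-AS1, MAPKAPK5-AS1, THAP9-AS1, IL10RB-AS1, FGD5-AS1 and NAV2-AS1 in each library, with YC-1 left of DMSO for each line and time, one point per library and a bar at the group mean. In every line and time the YC-1 libraries lie above the DMSO libraries for the first 3 transcripts and below them for the other 3.

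Among the members lower in all 4 comparisons were ARHGAP5-AS1, BAIAP2-AS1, FGD5-AS1, IL10RB-AS1, NAV2-AS1, NAV2-AS2 and TAPT1-AS1. NAV2-AS1 (ENSG00000254894, chr11:20119684-20120632) had the largest fall of them and lies wholly within exons of NAV2, a neuron navigator protein of the cytoskeleton. Its counts were 4.29, 0 and 4.49 in RBE with YC-1 at 16 h, against 107, 80.4 and 92.6 with DMSO, and 5.15, 12.6 and 8.61 in SNU1079 with YC-1 at 16 h, against 66.9, 116 and 150.1 with DMSO. At 6 h they were 25.9, 21.9 and 13.3 in RBE with YC-1, against 94.6, 87.5 and 95 with DMSO, and 15, 35.9 and 33.4 in SNU1079 with YC-1, against 159.7, 137 and 82.3 with DMSO. The log2 fold changes of -2.17, -4.93, -2.17 and -3.52 ran beside -2.07, -4.21, -2.24 and -3.13 for NAV2, and NAV2-AS2, a second antisense RNA with 65.7% of its exons in those of NAV2, had -1.91, -2.97, -2.28 and -3.18. The pair of antisense rows cannot be told apart from their sense gene here.

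FGD5-AS1 (ENSG00000225733, chr3:14920347-14948424), a noncoding RNA studied in several cancers, fell beside a sense gene that was near 0. It stood at 1760, 1870 and 1723 in RBE with YC-1 at 6 h, against 2345, 2797 and 2840 with DMSO, and at 1266, 1463 and 1183 with YC-1 at 16 h, against 2766, 2706 and 2664 with DMSO. In SNU1079 the counts were 845, 989.8 and 963 with YC-1 at 6 h, against 1740, 1616 and 1310 with DMSO, and 902, 830.4 and 1059 with YC-1 at 16 h, against 2044, 1998 and 2510 with DMSO. Its log2 fold changes were -0.57 ± 0.12, -1.06 ± 0.12, -0.73 ± 0.12 and -1.23 ± 0.12 (SE). FGD5, an exchange factor for Cdc42 known from endothelial cells, averaged 1.39 over all libraries and was not tested.

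BAIAP2-AS1 shares no exonic base with any gene on the other strand and runs head to head from its sense gene. BAIAP2-AS1 (chr17:81029130-81034881) averaged 246 ± 33.8 in RBE with YC-1 at 16 h, against 951 ± 91.9 with DMSO (SD, n = 3), and its log2 fold changes were -1.03, -1.95, -0.52 and -1.01. BAIAP2, an adaptor of membrane protrusions, passed the threshold in none of the comparisons. TAPT1-AS1 had -1.26, -1.36, -1.27 and -1.67 and ARHGAP5-AS1 had -0.93, -0.89, -0.70 and -2.07. ARHGAP5-AS1 and BAIAP2-AS1 were named after their values were seen.

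The 58 divergent members have no exonic base in common with the sense gene. Among them, IL10RB-AS1 fell in all 4 comparisons. In IL10RB-AS1 (ENSG00000223799, chr21:33263873-33266260, minus strand), counts were 69.4, 136 and 119 in RBE with YC-1 at 6 h, against 293, 276 and 276 with DMSO, and 47.2, 34.7 and 15.1 with YC-1 at 16 h, against 214, 206 and 211 with DMSO. In SNU1079 they were 189, 182 and 191 with YC-1 at 6 h, against 530.4, 612 and 516 with DMSO, and 108, 96.8 and 104 with YC-1 at 16 h, against 267, 277 and 289 with DMSO. The YC-1 libraries lay below the DMSO libraries in each comparison, with log2 fold changes of -1.43 ± 0.27, -2.80 ± 0.27, -1.55 ± 0.27 and -1.42 ± 0.27 (SE). IL10RB, a receptor subunit shared by the interleukin-10 family, had -0.23, -0.25, -0.13 and 0.36, called lower in RBE at 16 h and higher in SNU1079 at 16 h. The value of 0.36 is smaller than the shift of -0.47 over all genes there with the ribosomal protein sum, so its direction depends on the scaling. A second gene on the plus strand, IFNAR2, a subunit of the type I interferon receptor, shares 80.9% of the antisense exons and had -0.58, -0.08, -1.03 and -0.30, called in SNU1079 at 6 h alone.

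NUP50-AS1 (ENSG00000226328, chr22:45133020-45163781) starts head to head with NUP50, a mobile component of the nuclear pore, and rose in all 4 comparisons. Its counts were 188, 205 and 233 in RBE with YC-1 at 6 h, against 56, 49.3 and 40.05 with DMSO, and 299.9, 223 and 259 with YC-1 at 16 h, against 41.7, 50.8 and 29.7 with DMSO. In SNU1079 they were 282, 285 and 290.2 with YC-1 at 6 h, against 150.4, 136 and 171 with DMSO, and 385, 283 and 364 with YC-1 at 16 h, against 112, 118 and 107 with DMSO. The log2 fold changes of 2.09, 2.67, 0.91 and 1.60 compare with 0.30, 0.21, 0.01 and 0.62 for NUP50, of which the last alone was called. The rise was smaller in SNU1079 than in RBE, with a difference of -1.18 ± 0.27 (SE) at 6 h and -1.07 ± 0.27 at 16 h (limma adjusted p = 0.0233 and 0.0099).

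OSER1-AS1 and OSER1, which encodes a protein induced by oxidative stress, moved in the same direction. OSER1-AS1 (ENSG00000223891, chr20:44210960-44226027) was at 89.6, 111 and 90.6 in RBE with YC-1 at 16 h, against 33.3, 17 and 20.2 with DMSO, and at 147, 131 and 133 in SNU1079 with YC-1 at 6 h, against 41.7, 43.9 and 37.5 with DMSO. Its log2 fold changes were 1.01, 2.05, 1.72 and 0.65 and those of OSER1 were 0.76, 0.89, 0.97 and 0.47, all called. DNAJC3-AS1 (chr13:95648733-95676925) and DNAJC3, an endoplasmic reticulum co-chaperone, were both lower in SNU1079, with -1.98 and -0.95 at 6 h and -2.37 and -1.07 at 16 h. DNAJC3-AS1 stood at 17.4, 2.01 and 4.46 in SNU1079 with YC-1 at 16 h, against 43.7, 30.1 and 29 with DMSO.

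MAFG-AS1 and MAFG, a small MAF protein that pairs with NRF2 in the antioxidant response, moved apart. MAFG-AS1 (ENSG00000265688, chr17:81927829-81930753) was at 23.4, 3.85 and 20.2 in RBE with YC-1 at 16 h, against 32.4, 47.8 and 36 with DMSO, and at 37, 16.3 and 27.2 in SNU1079 with YC-1 at 6 h, against 87.4, 69.3 and 63.6 with DMSO. MAFG was at 4067, 3762 and 4346 in the same RBE libraries with YC-1, against 1239, 1484 and 1327 with DMSO. The antisense values of -0.88, -1.53, -1.48 and -0.53 were called in RBE at 16 h and SNU1079 at 6 h, and the sense values of 1.02, 1.59, 1.03 and 1.92 in every comparison. CEBPA-AS1, beside the transcription factor gene CEBPA, averaged 3.73 in SNU1079 with YC-1 at 16 h, against 59 with DMSO, a log2 fold change of -4.07 ± 0.64. CEBPA itself was low, at 8.61, 75.4 and 9 in SNU1079 with YC-1 at 16 h, against 16.8, 0 and 0 with DMSO. Its log2 fold change of 2.9 was called although the libraries overlap, and its highest value is from replicate 2, one of the libraries that stood apart.

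The start regions of these 5 pairs are shown because a single window holds both starts. Each window is the RefSeq sequence on GRCh38.p14 from 250 bases before to 50 bases after the start of the sense gene, written along the sense strand, and capitals mark the stretch between the starts of the antisense and the sense gene in GENCODE 29. The GENCODE start of the sense gene equals the RefSeq start for DNAJC3, lies upstream of it by 9 bases for IL10RB, 20 for OSER1 and 84 for NUP50, and lies 21 bases downstream of it for MAFG. They are chr21:33266117-33266416 (plus strand) for IL10RB, chr20:44210722-44211021 (minus) for OSER1, chr22:45163675-45163974 (plus) for NUP50, chr13:95676889-95677188 (plus) for DNAJC3 and chr17:81927686-81927985 (minus) for MAFG.
IL10RB: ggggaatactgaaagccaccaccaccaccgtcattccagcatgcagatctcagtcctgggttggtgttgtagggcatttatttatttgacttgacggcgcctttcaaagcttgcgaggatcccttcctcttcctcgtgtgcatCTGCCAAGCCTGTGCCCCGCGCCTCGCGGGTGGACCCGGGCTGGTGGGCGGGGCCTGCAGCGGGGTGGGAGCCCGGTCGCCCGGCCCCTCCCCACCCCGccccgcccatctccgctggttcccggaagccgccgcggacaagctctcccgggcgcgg
OSER1: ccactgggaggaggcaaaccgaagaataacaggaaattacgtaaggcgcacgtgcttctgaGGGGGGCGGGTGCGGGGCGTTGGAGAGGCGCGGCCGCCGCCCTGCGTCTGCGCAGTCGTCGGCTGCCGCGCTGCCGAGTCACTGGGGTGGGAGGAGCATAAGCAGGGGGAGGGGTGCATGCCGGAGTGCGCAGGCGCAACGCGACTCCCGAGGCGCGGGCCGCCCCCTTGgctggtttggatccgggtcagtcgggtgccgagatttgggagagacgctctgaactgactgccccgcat
NUP50: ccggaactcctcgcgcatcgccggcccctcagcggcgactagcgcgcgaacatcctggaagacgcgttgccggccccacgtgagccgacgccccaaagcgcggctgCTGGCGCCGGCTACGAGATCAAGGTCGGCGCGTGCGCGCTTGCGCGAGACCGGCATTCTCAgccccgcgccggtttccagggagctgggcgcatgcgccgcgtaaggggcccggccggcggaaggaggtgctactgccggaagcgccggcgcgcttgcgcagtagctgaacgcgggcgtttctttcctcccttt
DNAJC3: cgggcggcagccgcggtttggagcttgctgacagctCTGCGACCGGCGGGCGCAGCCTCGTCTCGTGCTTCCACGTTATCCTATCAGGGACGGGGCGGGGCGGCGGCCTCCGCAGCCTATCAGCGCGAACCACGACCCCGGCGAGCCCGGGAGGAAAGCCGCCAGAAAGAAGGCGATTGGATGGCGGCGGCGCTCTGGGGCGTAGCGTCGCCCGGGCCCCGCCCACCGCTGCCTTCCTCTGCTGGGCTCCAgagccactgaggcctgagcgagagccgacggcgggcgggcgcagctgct
MAFG: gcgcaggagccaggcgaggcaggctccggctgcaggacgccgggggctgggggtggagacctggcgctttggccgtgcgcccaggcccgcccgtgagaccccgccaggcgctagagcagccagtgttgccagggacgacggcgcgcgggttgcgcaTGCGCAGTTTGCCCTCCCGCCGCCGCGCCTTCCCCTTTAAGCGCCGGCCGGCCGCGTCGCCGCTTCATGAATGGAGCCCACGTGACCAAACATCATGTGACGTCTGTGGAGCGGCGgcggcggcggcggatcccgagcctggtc

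The capitals run over 99 bases for IL10RB, 170 for OSER1, 61 for NUP50, 215 for DNAJC3 and 116 for MAFG, and the windows hold 25, 32, 48, 39 and 39 CpG dinucleotides in that order. Of the 58 divergent pairs, 35 have both starts within such a window. GGGCGG, the core of the GC box bound by Sp family factors, was found on either strand in 31 of these 35 windows (88.6%) and in 45.0% of the 35116 promoter windows in the table. CCAAT was found in 9 (25.7%, beside 34.6%) and TATAAA in 2 (5.71%, beside 11.5%). TGACGTCA, the palindrome recognised by CREB and ATF factors, and TGATGNAAN, a composite element recognised by ATF4 with a C/EBP partner, were in none of the 35, beside 1.85% and 3.61% of all windows. Among the printed windows, GGGCGG is in those of IL10RB, OSER1, DNAJC3 and MAFG, and CCAAT in that of DNAJC3. A match of letters is a description and does not show binding, and none of the searched motifs contains another.

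**Figure D2:**
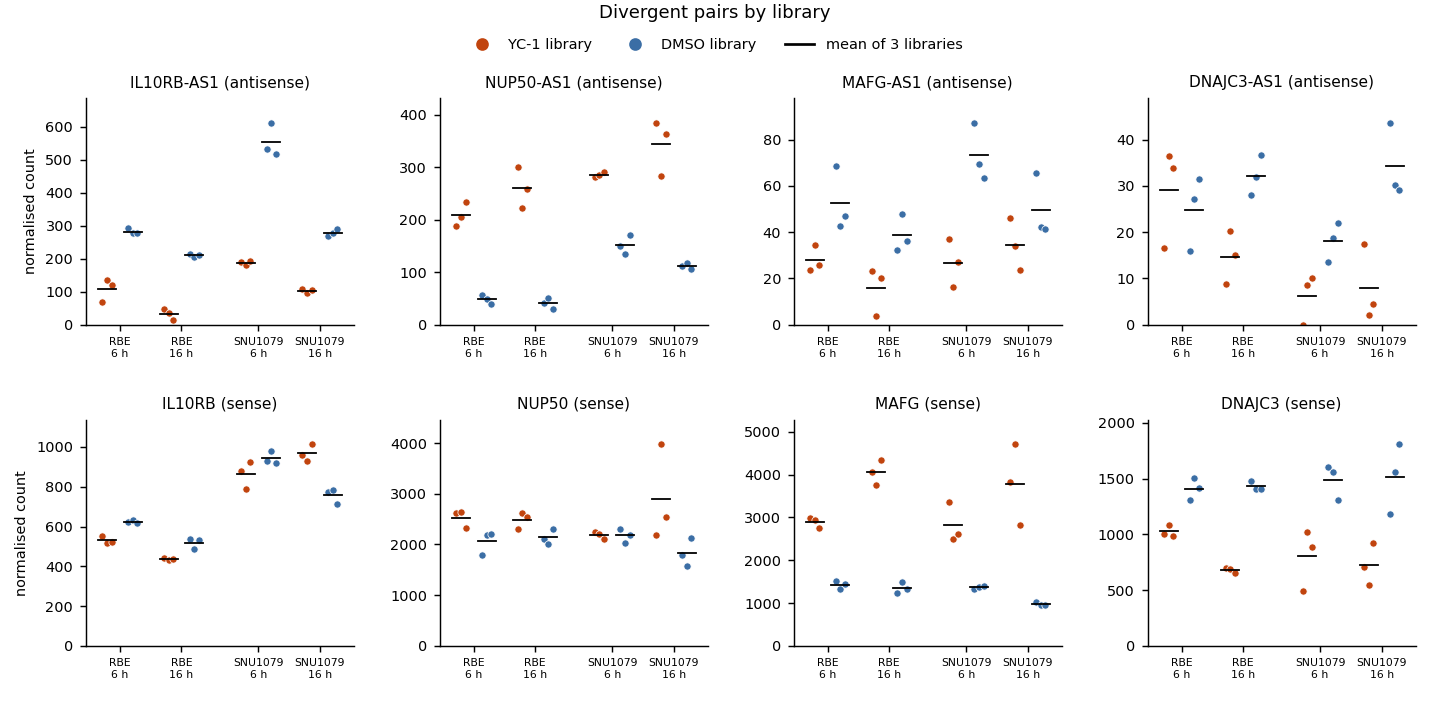
Normalised counts (linear axes from 0) of the antisense transcript (top row) and its head-to-head sense gene (bottom row) for IL10RB, NUP50, MAFG and DNAJC3 in each library, with YC-1 left of DMSO, one point per library and a bar at the group mean. IL10RB-AS1 is lower and NUP50-AS1 higher with YC-1 in each line and time while their sense genes moved by at most 0.62 on the log2 scale, and in RBE at 16 h and SNU1079 at 6 h MAFG-AS1 is lower and MAFG higher.

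Over all 378 pairs, the antisense and sense log2 fold changes were weakly related. Spearman's rho across pairs was 0.28 at 6 h and 0.34 at 16 h for RBE and 0.26 at 6 h and 0.29 at 16 h for SNU1079. The pairs share libraries and, in part, bases, so rho is a description. Over pairs of all positions it was higher where more bases are shared. Where over 25% of the antisense exons lie in those of the sense gene (95 pairs), rho was 0.57, 0.64, 0.50 and 0.65 in the same order. Where some but at most 25% do (185 pairs), it was 0.28, 0.34, 0.37 and 0.37, and where none do (97 pairs) it was -0.07, 0.01, -0.12 and -0.23. By position, rho was 0.39 to 0.54 for 73 members inside the sense gene, 0.39 to 0.57 for 86 that cross its end, 0.19 to 0.31 for 142 that cross its start and -0.13 to -0.04 for the 58 divergent ones. It was 0.18, 0.30, -0.38 and -0.15 for 17 that span the sense gene. Among those that cross the start, the order by shared bases was not the same in RBE, with -0.04 at 6 h and 0.05 at 16 h where over 25% are shared (16 pairs) and 0.23 and 0.24 where up to 25% are (106 pairs), while in SNU1079 the values were 0.45 and 0.49 against 0.35 and 0.41. Where such pairs share none (20 pairs), rho was -0.0 at 6 h and 0.37 at 16 h in RBE and -0.21 and -0.49 in SNU1079.

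**Figure D3:**
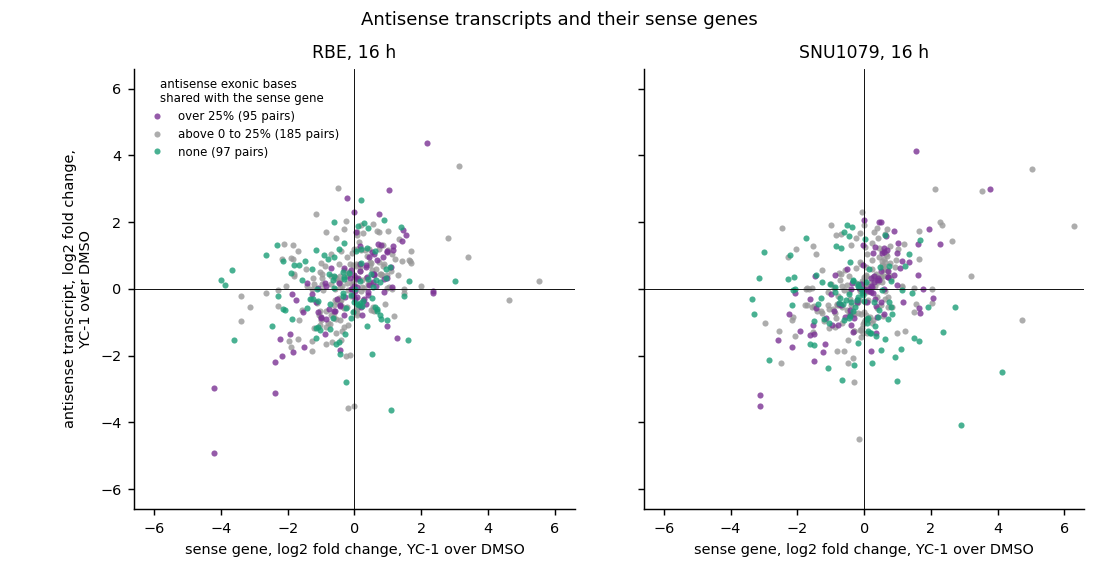
Log2 fold change of YC-1 over DMSO at 16 h for the antisense transcript against that of its sense gene in RBE and SNU1079, one point per pair, coloured by the share of antisense exons that lie in sense exons (over 25%, above 0 to 25%, none). Pairs with over 25% shared follow the diagonal (rho of 0.64 and 0.65), and pairs with none have a rho of 0.01 in RBE and -0.23 in SNU1079.

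**Figure D4:**
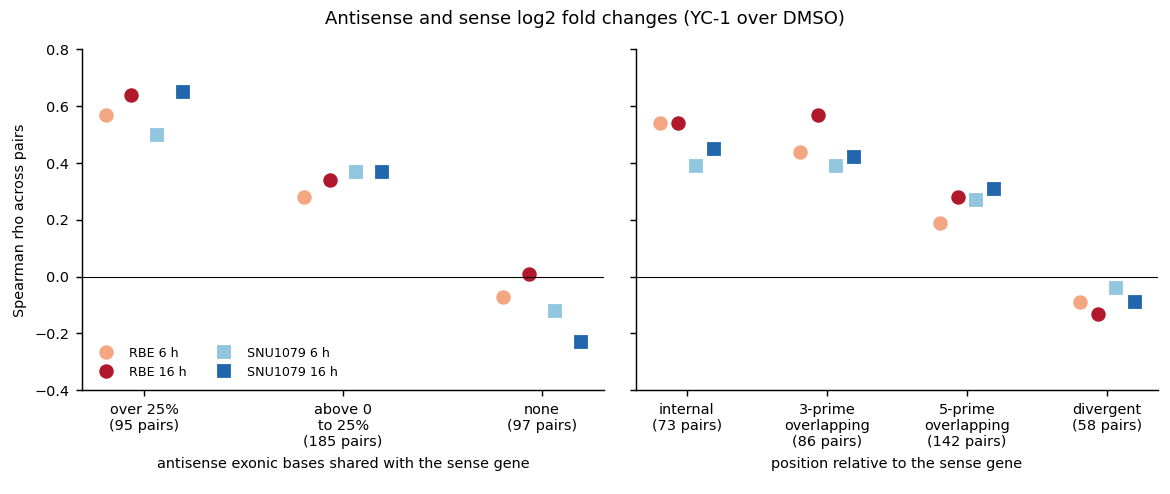
Spearman's rho across pairs between antisense and sense log2 fold changes in the 4 comparisons of YC-1 with DMSO, by the share of exonic bases and by the position of the antisense transcript. The coefficient is highest where over 25% of bases are shared and lies near or below 0 where none are and in divergent pairs.

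In RBE at 6 h both rows of a pair were called in 21 pairs, of which 11 had both higher, 8 both lower, 1 the antisense higher and the sense lower (DOCK9-AS2) and 1 the reverse (INHBA-AS1). In RBE at 16 h the same counts were 29, 39, 8 and 5 of 81 pairs, with NIFK-AS1, FOXD1-AS1, AGAP2-AS1 and MAFG-AS1 among the last 5. In SNU1079 at 6 h they were 14, 9, 0 and 4 of 27, with the last 4 at RNASEH1-AS1, NIFK-AS1, ZNF213-AS1 and MAFG-AS1, and in SNU1079 at 16 h 35, 39, 9 and 14 of 97. Opposite calls therefore made up 13 of 81 pairs in RBE and 23 of 97 in SNU1079 at 16 h. Among divergent pairs they were 7 of 12 and 10 of 20, and among pairs with over 25% of bases shared 2 of 29 (FOXD1-AS1 and AGAP2-AS1) and 1 of 27 (MORC2-AS1). Over all 58 divergent pairs at 16 h, called antisense rows were 12 higher and 12 lower in RBE and 8 and 17 in SNU1079. The share of opposite calls among unrelated rows was not computed. FOXD1-AS1, AGAP2-AS1, RNASEH1-AS1 and MORC2-AS1 were named after their values were seen. Whether the classes differ was not tested.

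TRAM2-AS1 and PRKCQ-AS1 were called higher in RBE at 16 h where their sense genes were called lower. TRAM2-AS1 stood at 431, 525 and 458 in RBE with YC-1 at 16 h, against 255, 273 and 258 with DMSO, while TRAM2, a partner of the endoplasmic reticulum translocon, stood at 824, 877 and 733 with YC-1, against 3550, 3564 and 3696 with DMSO. The log2 fold changes were 0.84 and -2.15 there, and 0.37 and -2.11 in SNU1079 at 16 h, all called. With the ribosomal protein sum the antisense values turned to -0.04 in RBE and -0.16 in SNU1079. PRKCQ-AS1 averaged 119 ± 34.3 in RBE with YC-1 at 16 h, against 56.8 ± 8.58 with DMSO (SD, n = 3), a log2 fold change of 1.02, whereas PRKCQ, protein kinase C theta, had -2.66. Both antisense RNAs are divergent and share no exonic base with the sense gene. TRAM2-AS1 was named after its values were seen.

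In SNU1079 at 16 h, SDCBP2-AS1 averaged 68.5 ± 29.2 with YC-1, against 124 ± 17.2 with DMSO, a log2 fold change of -0.94. SDCBP2, encoding the scaffold protein syntenin-2, averaged 363 ± 74.6 with YC-1, against 12.6 ± 1.1 with DMSO, a log2 fold change of 4.73. ZNF213-AS1 had -1.21 at 6 h and -1.29 at 16 h in SNU1079, beside 1.08 and 2.35 for the zinc finger gene ZNF213, and NIFK-AS1 had -0.67 and -1.27, beside 0.77 and 1.23 for NIFK, a nucleolar partner of Ki-67. Other opposite pairs had a low antisense level. ARHGAP31-AS1 averaged 6.84 in SNU1079 with YC-1 at 16 h, against 27.4 with DMSO, a log2 fold change of -2.50, beside a log2 fold change of 4.13 for ARHGAP31, a GTPase-activating protein for Rac and Cdc42. DOCK9-AS2 averaged 29.7 in RBE with YC-1 at 6 h, against 8.4 with DMSO, a log2 fold change of 1.73, beside -1.78 for DOCK9, a Cdc42 exchange factor.

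Other pairs named by opposite calls were INHBA-AS1, ATP2B1-AS1 and VLDLR-AS1. INHBA-AS1 averaged 0.191 in RBE with YC-1 at 6 h, against 2.43 with DMSO, while INHBA, an activin subunit, had a log2 fold change of 1.95. ATP2B1-AS1 had 2.23 in RBE at 16 h, beside -1.16 for the plasma membrane calcium pump gene ATP2B1. VLDLR-AS1 had 1.32 in RBE and -1.26 in SNU1079 at 16 h, both called, whereas the lipoprotein receptor gene VLDLR fell in both, with -1.83 and -2.55.

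ZSWIM8-AS1, CHMP1B-AS1, MYCBP2-AS1 and DNMBP-AS1 moved in the direction of a sense gene whose bases they share. ZSWIM8-AS1, with 64.6% of its exons in those of ZSWIM8, the substrate receptor of a ubiquitin ligase that acts on Argonaute, rose by 2.96 in RBE and 4.14 in SNU1079 at 16 h, beside 1.03 and 1.55 for ZSWIM8. CHMP1B-AS1 lies wholly within the exon of CHMP1B, an ESCRT-III subunit, and rose by 1.77 in RBE at 16 h and 1.55 in SNU1079 at 6 h, beside 1.45 and 1.68. MYCBP2-AS1 fell, with -2.20 in RBE and -1.74 in SNU1079 at 16 h, beside -2.38 and -2.16 for the ubiquitin ligase gene MYCBP2. DNMBP-AS1 fell, with -2.0 and -2.16, beside -2.18 and -1.51 for DNMBP, a Cdc42 exchange factor.

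Others changed where the sense gene was not called in the same comparison. RARA-AS1 stood at 61.8, 77.3 and 83 in RBE with YC-1 at 16 h, against 12.2, 16.7 and 14.1 with DMSO, a log2 fold change of 2.29 ± 0.31 (SE), while RARA, the retinoic acid receptor alpha, had -0.01. RAP2C-AS1 stood at 0.673, 3.02 and 5.92 in RBE with YC-1 at 16 h, against 26.6, 57.4 and 41.8 with DMSO, a log2 fold change of -3.51 ± 0.72, while the small GTPase gene RAP2C had 0.00. STARD4-AS1 averaged 5.36 in SNU1079 with YC-1 at 16 h, against 85.3 with DMSO, a log2 fold change of -4.50 ± 0.82, while the sterol carrier gene STARD4 had -0.15. STARD4-AS1 shares most, 15.7% of its exons, with NREP, which had -2.27 in the same comparison. RUNDC3A-AS1 rose together with its sense gene while sharing 4.16% of its exons with it. It averaged 40.5 in SNU1079 with YC-1 at 16 h, against 4.31 with DMSO, a log2 fold change of 2.98 ± 0.54, beside 2.13 for RUNDC3A. WEE2-AS1 rose in RBE, by 1.82 at 6 h and 1.97 at 16 h. In SNU1079 it had 0.18 and 0.25, not called, and the differences between the lines, -1.64 and -1.71, were not called. C1RL-AS1 was called lower in RBE at 6 h, with -1.17, although its libraries overlap at 27.6, 40.5 and 90.6 with YC-1, against 84.8, 118 and 119.5 with DMSO.

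A change of the YC-1 effect between 6 h and 16 h was called for few members. In RBE, 25 members (6.08%, beside 18.2% of all genes) had a called difference between the effects, 15 with a higher and 10 with a lower log2 fold change at 16 h, beside 8.8% and 9.43% of all genes. In SNU1079 there were 35 (8.52%, beside 17%), 13 higher and 22 lower, beside 8.47% and 8.53%. Among the 74 members with a median of 100 or more, the shares called were 14.9% in RBE and 20.3% in SNU1079. The part of the low level of most members in the smaller shares was not tested. The balance of directions depended on the scaling. With equal sums, 7 were higher and 26 lower in RBE and 5 higher and 48 lower in SNU1079. All genes then had 566 higher and 3436 lower in RBE and 500 higher and 3239 lower in SNU1079. With the ribosomal protein sum 3 members were higher and 97 lower in RBE and 3 higher and 41 lower in SNU1079. All genes then had 151 higher and 7618 lower in RBE and 417 higher and 2286 lower in SNU1079. The median of this difference over all genes was -0.29 with equal sums and -0.79 with the ribosomal protein sum in RBE and -0.26 with either in SNU1079. PSMB8-AS1, which crosses the start of the immunoproteasome gene PSMB8, was at 275, 318 and 316 in RBE with YC-1 at 16 h, against 57.8, 61.2 and 69.8 with DMSO, and at 93.5, 106 and 109.5 with YC-1 at 6 h, against 118, 106 and 108 with DMSO. The groups overlapped at 6 h and were apart at 16 h, and the effects differed by 2.35 ± 0.26 (SE, limma adjusted p = 6.19e-06), beside 0.76 for PSMB8. SLC25A25-AS1 was at 79.5, 89.8 and 99.6 in SNU1079 with YC-1 at 16 h, against 7.23, 15.4 and 11.7 with DMSO, and at 87.7, 42.7 and 54.5 with YC-1 at 6 h, against 29.5, 40.9 and 18.4 with DMSO. Its effects differed by 1.88 ± 0.44, while the mitochondrial ATP-Mg/phosphate carrier gene SLC25A25 rose in each comparison, by 2.66, 3.41, 2.44 and 3.52. Both counts moved when single libraries were left out. In RBE the count was 12 without DMSO replicate 1 at 6 h, 15 without YC-1 replicate 1 at 16 h and 16 without DMSO replicate 3 at 16 h or YC-1 replicate 2 at 6 h, and in SNU1079 it was 23 without DMSO replicate 3 at 6 h or at 16 h.

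In both lines, 78 members (19%, beside 38.9% of all genes) were called at 16 h. Of these, 33 (8.03% of the members, beside 19.3% of all genes) were higher in both lines and 40 (9.73%, beside 18.4%) were lower in both. The 33 are 46.5% of the members higher in RBE and 49.3% of those higher in SNU1079, beside 70.9% and 67.3% over all genes. The 40 are 53.3% of those lower in RBE and 44.0% of those lower in SNU1079, beside 69.1% and 71.2%. At 6 h, 33 members were called in both lines (8.03%, beside 16.2%). Of these, 23 (5.6%, beside 7.64%) were higher in both, which is 59.0% of those higher in RBE and 71.9% of those higher in SNU1079, beside 65.9% and 54.6% over all genes. Another 9 (2.19%, beside 8.39%) were lower in both, which is 37.5% and 23.1%, beside 67.5% and 58.9%. Opposite calls between the lines were made for FOXD2-AS1 at 6 h and for DCST1-AS1, VLDLR-AS1, SLC25A21-AS1, DLGAP1-AS2 and MAP3K14-AS1 at 16 h. Of all 17860 genes, 2898 were called in both lines at 6 h, with 1364 higher and 1499 lower in both and the rest opposite. At 16 h it was 6948, with 3451 higher and 3285 lower in both and the rest opposite. Whether members differ from all genes in this was not tested. The value of DCST1-AS1 in RBE at 16 h turned to -0.10 with the ribosomal protein sum. DCST1-AS1 and MAP3K14-AS1 were named after their values were seen.

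The difference of effects between the lines was called for 9 members at 6 h (2.19%, beside 1.54% of all genes). All were lower in SNU1079, beside 0.773% of all genes lower and 0.767% higher. With equal sums 1 was higher and 8 lower, beside 132 and 146 of all genes. At 16 h it was called for 54 (13.1%, beside 14.6%), 15 higher and 39 lower, beside 8.17% and 6.43%. With the ribosomal protein sum, which put the median over all genes at 0.40, 30 were higher and 23 lower, beside 3092 and 418 of all genes. Without DMSO replicate 2 or 3 of RBE at 6 h, the first count was 5 or 4. FOXD2-AS1 (ENSG00000237424, chr1:47432133-47434641) is divergent from FOXD2, a forkhead transcription factor gene. At 6 h it was at 113, 71.9 and 92.9 in SNU1079 with YC-1, against 211, 249.9 and 240.1 with DMSO, and at 157, 160 and 163 in RBE with YC-1, against 96.2, 71.1 and 90.6 with DMSO. It was lower than DMSO in SNU1079 and higher in RBE, without overlap. The difference was -2.25 ± 0.25 (SE, limma adjusted p = 3.13e-05) at 6 h and -2.27 ± 0.25 at 16 h. FOXD2 fell in SNU1079, with -1.16 and -0.75, and had -0.12 and 0.10 in RBE, and its differences between the lines were not called.

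EMC3-AS1 averaged 47.7 ± 19.2 in SNU1079 with YC-1 at 16 h, against 55.3 ± 18.2 with DMSO, and 305 ± 7.95 in RBE with YC-1, against 79.7 ± 10.9 with DMSO (SD, n = 3). Its difference between the lines was -2.32 ± 0.52 at 6 h and -2.17 ± 0.52 at 16 h. DLGAP1-AS2 was at 13.2, 5.61 and 22.4 in SNU1079 with YC-1 at 16 h, against 39.3, 39.3 and 44.3 with DMSO, and at 119, 118 and 114 in RBE with YC-1, against 39.6, 41.7 and 38.1 with DMSO, a difference of -3.22 ± 0.52. SLC25A21-AS1 differed by -1.81 at 6 h and -2.63 at 16 h, and ZEB1-AS1, beside the mesenchymal transcription factor gene ZEB1, by -1.45 and -1.30. ZEB1-AS1 fell in SNU1079, with -0.79 and -0.77, while in RBE it had 0.66 and 0.52, not called.

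**Figure D5:**
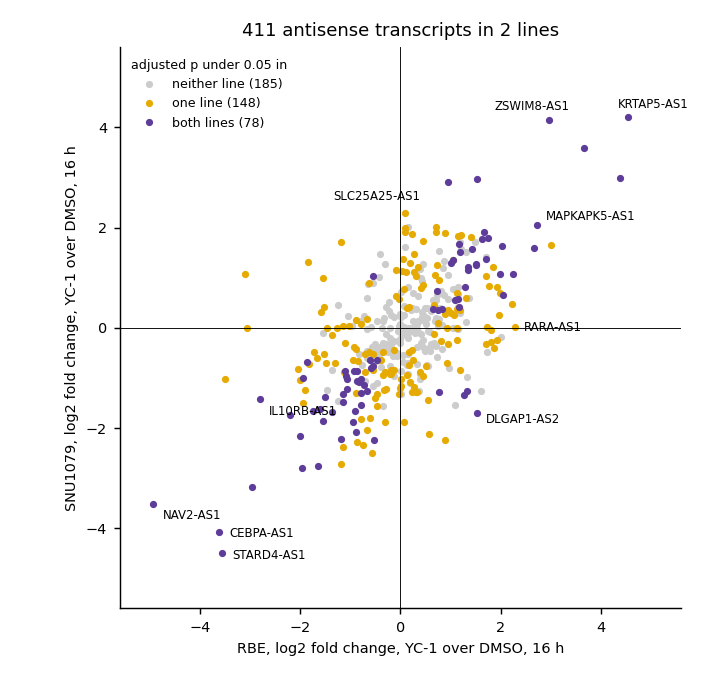
Log2 fold change of YC-1 over DMSO at 16 h in SNU1079 (vertical) against RBE (horizontal) for the 411 members, one point each, coloured by whether the member was called in both lines (78), in one (148) or in neither (185). Most members called in both lie in the quadrants of equal direction, with 33 higher and 40 lower in both lines.

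With DMSO alone, the lines differed in most members. Averaged over both times, 227 members (55.2%, beside 67.1% of all genes) differed, 128 higher and 99 lower in SNU1079 than in RBE, beside 32.1% and 35% of all genes. ARSD-AS1, wholly inside exons of the arylsulfatase gene ARSD, was listed at 0 in all SNU1079 libraries. In the RBE DMSO libraries it was at 114, 85.2 and 104 at 6 h and 86.6, 91.5 and 90.2 at 16 h. ZNF667-AS1 was also listed at 0 in SNU1079 and averaged 37.2 in RBE with DMSO at 6 h and 37.7 at 16 h. B3GALT5-AS1, TRHDE-AS1 and APCDD1L-AS1 were at or near 0 in every SNU1079 library with DMSO. TRHDE-AS1 was at 1.54, 0 and 36.5 in SNU1079 with YC-1 at 16 h, where a single library was high. In the other direction, DPP10-AS1 averaged 130.4 ± 7.66 in SNU1079 with DMSO at 6 h and 11.8 ± 1.32 in RBE (SD, n = 3), a difference over both times of 3.66 ± 0.21 (SE), beside 2.32 for DPP10, a modulator of potassium channels. RASSF8-AS1 differed by 2.56, KCNJ2-AS1 by 3.31, SPATA3-AS1 by 2.97 and ZFPM2-AS1, at 0 in all RBE libraries, was at 45.8 at 6 h and 26.8 at 16 h on average in SNU1079 with DMSO. ARSD-AS1 and ZNF667-AS1 passed the level filter through RBE alone and ZFPM2-AS1 through SNU1079 alone, so they had to differ between the lines. Their differences, and those of members near 0 in a line, are given as a description. Between 16 h and 6 h of DMSO, 27 members differed in SNU1079 (6.57%, beside 8.57%), 19 higher and 8 lower, beside 3.82% and 4.75%. With the ribosomal protein sum 9 were higher and 7 lower, beside 345 and 681 of all genes. The count of 27 was 12 without DMSO replicate 1 or 2 at 6 h, 14 without replicate 3 at 6 h, 15 without replicate 1 at 16 h and 16 without replicate 2 at 16 h. In RBE none did by limma (beside 0.0448% of all genes, 0.0056% higher and 0.0392% lower), with 12 at an unadjusted p under 0.05.

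Of the other abundant members, several were called in none of the comparisons or in 1. VIM-AS1, beside the vimentin gene, averaged 5315 over all libraries and passed the threshold in none of the 4 comparisons, and neither did PXN-AS1 (mean 1092) nor CERS6-AS1 (mean 761). MMP24-AS1 (mean 1317), which GENCODE 29 types as protein-coding, was called in RBE at 16 h alone, at 0.68, which turned to -0.20 with the ribosomal protein sum. OIP5-AS1 (cyrano, mean 1645), known for its binding of microRNA-7, fell in SNU1079 at 16 h, with -0.48, and had -0.06, 0.17 and -0.02 elsewhere.

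Of 14 antisense RNAs with a literature in cancer or cell biology, 12 were members, while CDKN2B-AS1 and HIF1A-AS2 were not. AFAP1-AS1 was at 87.5, 117 and 110.3 in RBE with YC-1 at 16 h, against 187, 208 and 208 with DMSO, and fell there, with -0.94. AFAP1, an actin-filament adaptor, fell in each comparison. PSMA3-AS1 fell at 16 h, with -0.47 in RBE and -0.65 in SNU1079, and DDX11-AS1 fell in SNU1079, with -1.55 at 6 h and -1.32 at 16 h. DDX11 has near-identical copies, so the assignment of reads at this locus is uncertain. GABPB1-AS1, TMPO-AS1, TTN-AS1, MCM3AP-AS1 and WDFY3-AS2 passed the threshold in none of the 4, with log2 fold changes between -1.16 and 0.81.

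Genes of nuclear RNA decay and transcription termination, which act on many antisense RNAs, were read beside the members. Of 33 tested, 4 were higher and 6 lower with YC-1 in RBE at 6 h (30.3%, beside 24% of all genes), 9 and 15 at 16 h (72.7%, beside 53.9%), 4 and 4 in SNU1079 at 6 h (24.2%, beside 28.2%) and 9 and 13 in SNU1079 at 16 h (66.7%, beside 54.5%). With equal sums the counts at 16 h were 4 and 18 in each line, and with the ribosomal protein sum RBE had 0 higher and 23 lower and SNU1079 had 2 higher and 18 lower. The core subunit genes of the exosome were called in both directions. EXOSC1 was higher in all 4, with 0.31, 0.99, 0.35 and 0.36, and EXOSC2 at 16 h, with 0.34 in RBE and 0.37 in SNU1079. In RBE at 16 h, EXOSC5, EXOSC7 and EXOSC8 were higher, with 1.17, 0.68 and 1.01, and in SNU1079 at 16 h EXOSC4 was, with 0.74. EXOSC3 had -0.36, -1.11, -1.23 and -1.21, of which the last 3 were called. EXOSC6 had -0.60, -1.25, -0.43 and -0.74, called in all but the third, and EXOSC9 was lower at 16 h, with -0.59 in RBE and -0.91 in SNU1079. With the ribosomal protein sum the 16 h values turned for EXOSC2 in both lines, for EXOSC7 and DIS3 in RBE and for EXOSC1 in SNU1079, the last also with equal sums. SKIV2L2, which encodes the exosome helicase MTR4, had -0.37, -1.03, -0.84 and -1.50, the last 3 called, and ZFC3H1, a scaffold of the complex that delivers polyadenylated RNA to the exosome, had -0.97, -1.23, -0.60 and -1.37, called in all but the third. PABPN1, the nuclear poly(A)-binding protein, fell in all 4, with -0.51, -0.59, -0.60 and -0.54. The catalytic subunit DIS3 rose in RBE by 0.63 and 0.60 and in SNU1079 at 16 h by 0.94, and NCBP2, the smaller cap-binding subunit, rose in all 4, by 0.53, 1.05, 0.58 and 1.44. INTS9, of the Integrator endonuclease, fell in all 4, with -1.18, -1.95, -1.11 and -1.12. Their part in the levels of the antisense transcripts was not tested.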

How the data were processed

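Sequencing covered 24 mRNA libraries in 8 groups of 3, prepared with a strand-specific kit per the labels. The authors' tools were STAR and DESeq2 with hg38, per the submitters' processing notes. The values analysed are the deposited normalised counts, a signal scaled per library by the authors, and whole reads could not be recovered from them, so the depth is unknown and a count test was not run. The authors' annotation and strand setting are not stated in the labels or headers used. The treatment time in the labels contradicts the sample titles (16 h for every DMSO and 6 h for every YC-1 library), so titles and design text set the times.

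All 17860 genes with at least 10 in at least 3 libraries were fitted on log2(normalised count + 1) with limma 3.58.1 (R 4.3.3), with a mean per group, 16 residual degrees of freedom and an intensity trend. A fold change is on this scale, which compresses changes at low level. Its SE is moderated and rests on a single spread per gene over all 24 libraries, so it does not measure the spread of the groups compared. P-values are two-sided and adjusted by Benjamini-Hochberg over all genes, with a threshold of 0.05. The fit was tested on simulated data. Positions come from GENCODE release 29 and promoter windows from RefSeq (GRCh38.p14), which holds a window for 261 members. Tables and figures used Python 3.11.15, numpy 2.4.6, pandas 2.3.3 and matplotlib 3.10.9.

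The members and all lists were chosen with earlier results of these data known. Members named by rule are the 5 highest and 5 lowest called per comparison of YC-1 with DMSO and for the lines under DMSO, and the 3 highest and 3 lowest per difference of effects, each at a mean of 30 or more in the higher of the groups compared. The rule adds the 10 highest means, 14 antisense RNAs from the literature, the 3 largest opposite pairs per comparison and the sense genes of all these. Some members that the rule names are not reported here. Alternatives were other scalings, pseudocounts of 0.5 and 5, no filter, no trend, an adjusted p of 0.01, a replicate block, single lines, pooled times, members without shared bases, each library left out, and the 3 libraries that stood apart left out.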

Additional observations from a re-analysis of the deposited data

Results flagged for a closer look

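YC-1 effects were unequal between the times or the lines for the members below, by limma's test of the difference itself with Benjamini-Hochberg adjustment. They are taken from the 3 highest and 3 lowest called differences of each kind. Each SE comes from the spread of a gene over all 24 libraries and not from the groups compared alone.

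Between 16 h and 6 h in RBE, the effect at 16 h was higher for PSMB8-AS1 by 2.35 ± 0.26 (adjusted p = 6.19e-06), for MAPKAPK5-AS1 by 1.44 ± 0.22 (adjusted p = 0.000174) and for PRR34-AS1 by 1.36 ± 0.35 (adjusted p = 0.00922). It was lower for NAV2-AS1, with -2.76 ± 0.73 (adjusted p = 0.0111), for IL10RB-AS1, with -1.37 ± 0.38 (adjusted p = 0.0161), and for FBXL19-AS1, with -1.32 ± 0.36 (adjusted p = 0.0146).

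Between 16 h and 6 h in SNU1079, the effect at 16 h was higher for SLC25A25-AS1 by 1.88 ± 0.44 (adjusted p = 0.00614) and for SMIM15-AS1 by 1.81 ± 0.61 (adjusted p = 0.0452). It was lower for H1FX-AS1, with -2.54 ± 0.71 (adjusted p = 0.0175), for ST7-AS1, with -2.30 ± 0.79 (adjusted p = 0.0488), and for CARD8-AS1, with -1.76 ± 0.41 (adjusted p = 0.00635).

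Between SNU1079 and RBE at 6 h, the effect was lower in SNU1079 for EMC3-AS1, with -2.32 ± 0.52 (adjusted p = 0.0229), for FOXD2-AS1, with -2.25 ± 0.25 (adjusted p = 3.13e-05), and for RAB11B-AS1, with -2.24 ± 0.48 (adjusted p = 0.0162). At 16 h it was lower in SNU1079 for DLGAP1-AS2, with -3.22 ± 0.52 (adjusted p = 0.000291), for ST7-AS1, with -3.12 ± 0.79 (adjusted p = 0.0101), and for SLC25A21-AS1, with -2.63 ± 0.38 (adjusted p = 0.000111). It was higher in SNU1079 for SLC25A25-AS1 by 1.95 ± 0.44 (adjusted p = 0.00483) and for TAB3-AS2 by 1.90 ± 0.64 (adjusted p = 0.0498). TAB3-AS2 had 6 YC-1 libraries and 2 DMSO libraries at 10 or more, so it passed the level filter through YC-1.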

How the results depend on the processing

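Of the single log2 fold changes named, 236 under the reported settings, 3770 of the values under the alternatives kept direction and side of the threshold, 370 kept direction but missed it, and 8 turned. The turns were MMP24-AS1 (-0.20), PAX8-AS1 (-0.13), TRAM2-AS1 (-0.04) and DCST1-AS1 (-0.10) in RBE at 16 h and PAX8-AS1 (-0.17), TRAM2-AS1 (-0.16) and ZNF337-AS1 (-0.12) in SNU1079 at 16 h with the ribosomal protein sum, and PAX8-AS1 (-0.01) in SNU1079 at 16 h with equal sums.

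No pairing by replicate number was seen: deviations of same-numbered YC-1 and DMSO libraries correlated between -0.147 and 0.188. The same number correlated best for replicate 1 of RBE (0.085) and replicate 3 of SNU1079 (0.188), both at 16 h. With 3 libraries per group this check cannot exclude a pairing. The replicate block gave 58, 138, 66 and 156 called members in RBE at 6 h and 16 h and SNU1079 at 6 h and 16 h, and moved no count by over 1.5 times.

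The counts of called members moved as follows, with the cause not tested where the setting does not itself change the genes or libraries. In RBE at 6 h (63), the count was 39 at an adjusted p of 0.01 and 134 with both times pooled. In a fit of RBE alone it was 100, beside 3308 higher and 3452 lower of all 17860 genes. The fit over both lines had 2069 and 2221 of all genes. Of the 86 members that share no exonic base with the other strand 13 were called, 15.1% beside 15.3% of all members. In SNU1079 at 6 h (71), the count was 34 at an adjusted p of 0.01, 154 with both times pooled and 40 in a fit of SNU1079 alone. All genes had 1640 higher and 1692 lower in that fit, against 2499 and 2543 in the fit over both lines. Of the 86 members with no shared base 16 were called, 18.6% beside 17.3% of all members. At 16 h, the members with no shared base held 35 of 146 calls in RBE (40.7% of the 86, beside 35.5% of all members). In SNU1079 they held 30 of 158 (34.9%, beside 38.4%), and the stricter threshold gave 100 there. For the change between times in RBE (25), the count was 14 with no filter, beside 1385 higher and 1370 lower of 33663 genes. It was 60 with RBE alone, beside 3036 and 3193 of all genes, against 1571 and 1685 in the fit over both lines. It was 100 with the ribosomal protein sum, beside 151 and 7618, and 52 without the 3 libraries that stood apart. In SNU1079 (35) it was 53 with equal sums, beside 500 higher and 3239 lower of all genes, and 23 with no filter, beside 1261 and 1266. It was 12 with SNU1079 alone, beside 492 and 586 of all genes, and 62 without those libraries. The reported setting had 1512 and 1524 of all genes. For DMSO at 16 h against 6 h, the count was 1 with RBE alone (0), beside 17 higher and 51 lower of all genes. In SNU1079 (27) it was 16 with no filter, beside 577 and 704, and 9 with SNU1079 alone, beside 197 and 272. It was 16 with the ribosomal protein sum, beside 345 and 681, and 48 without those libraries. The reported setting had 682 and 848 of all genes. The difference between the lines at 6 h (9) had 19 without them. Without those libraries the 4 comparisons of YC-1 with DMSO had 92, 189, 91 and 153. The counts over all genes without those libraries, with pooled times and at the stricter threshold are not given.

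The median log2 fold change of the members in RBE at 16 h (0.15) was -0.16 with equal sums, -0.67 with the ribosomal protein sum and 0.19 with the upper quartile. In RBE at 6 h (-0.05) it was -0.09, -0.11 and, for members with no shared base, 0.02. In SNU1079 at 16 h (-0.08) it was -0.40, -0.56 and -0.34, and at 6 h (-0.10) -0.32 with the ribosomal protein sum. These scalings shift all genes by their construction.

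Leaving out each library in turn gave 47 to 61, 120 to 128, 49 to 63 and 139 to 153 called members in RBE at 6 h and 16 h and SNU1079 at 6 h and 16 h, with medians of -0.11 to -0.03, 0.11 to 0.17, -0.13 to -0.02 and -0.20 to -0.06 and rho of 0.25 to 0.29, 0.32 to 0.35, 0.24 to 0.28 and 0.27 to 0.30. It gave 12 to 23 for the change between times in RBE, 23 to 47 in SNU1079, 4 to 12 and 41 to 64 for the lines at 6 h and 16 h, 204 to 220 for the lines under DMSO, and 0 to 0 in RBE and 12 to 19 in SNU1079 for DMSO over time.

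Leaving out the 3 libraries that stood apart was chosen after seeing the data. Many members are near the level filter, where the log2(normalised count + 1) scale compresses changes and fewer calls can be made. The depth of the libraries is unknown, so no counting interval can be given. Bases shared with genes on the other strand limit what 324 of the 411 rows measure.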
